A study of Mus musculus with 4 samples.

Results

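The table of small RNA counts from mouse plasma lists 55 piRNA names, and 41 of them stand in the table with exactly 1 row. These 41 names are described here, chosen by that rule alone from 94 piRNA entries and 1015 entries in all. The other 14 names have 53 rows between them. The table holds counts of unique molecular identifiers (UMIs), random tags that let copies of a molecule be counted once, for 4 libraries, 2 from mice after acute myocardial infarction (AMI) and 2 from Sham mice. All mice were C57BL/6, and by the study's methods they were males of 8 weeks unless stated otherwise. For AMI the left anterior descending coronary artery was permanently tied off under pentobarbital, after opening of the chest, and Sham mice had every step but the tie. No source says whether each library is from its own mouse, so p-values measure only the spread between these libraries, which may be technical. The time of blood collection for these libraries is not given either.

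piRNAs are small RNAs, slightly longer than miRNAs, that are bound by PIWI proteins. They are best known from the germ line, where they guide the silencing of transposons. Plasma is the cell-free part of blood, and many sequences catalogued as piRNAs coincide with pieces of other non-coding RNAs such as tRNA, rRNA and small nucleolar RNA. No sequence is given with the names in the table, so none is printed here, and no PIWI binding was measured.

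A name with 1 row is not thereby a sequence with 1 copy in the genome. For every entry, the larger UMI count of AMI 1 and Sham 2 was 0 or at least 10, and the same held for AMI 2 and Sham 1, whereas the other pairs of libraries had 71 to 169 entries with a larger count of 1 to 9. Rows with low counts may thus have been left out by pairs of libraries, and 7 of the 41 names stand at 0 in both libraries of one such pair. A 0 in those rows may not be a measured absence. Positions below are those listed with each name, in a genome build that is not known.

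The libraries held 9016139 UMIs (AMI 1) and 11461361 UMIs (AMI 2), against 7460687 UMIs (Sham 1) and 4842247 UMIs (Sham 2). The 41 names together had 5604 and 6187 UMIs with AMI, against 3118 and 2473 UMIs with Sham. With AMI this was 0.0622% (exact Clopper-Pearson 95% interval 0.0605 to 0.0638) and 0.0540% (0.0526 to 0.0553) of all UMIs. With Sham it was 0.0418% (0.0403 to 0.0433) and 0.0511% (0.0491 to 0.0531). The AMI libraries lay above the Sham libraries by UMIs, but the groups overlapped by reads, with 0.0578% and 0.0491% in AMI against 0.0391% and 0.0493% in Sham libraries. Intervals cover counting error only. The red blood cell miRNA miR-451a, set against miR-23a-3p, stood at a log2 ratio of 1.02 and 0.52 with AMI, against 3.02 and 1.56 with Sham. Other red blood cell miRNAs did not fall with it. miR-16-5p went the other way, at 230477 and 302373 CPM with AMI, against 206614 and 111889 CPM with Sham. miR-486a-5p was at 16559 and 14785 CPM with AMI, against 17210 and 11025 CPM with Sham. The hepatocyte miRNA miR-122-5p was at 66803 and 96674 CPM with AMI, against 5857 and 17270 CPM with Sham. Among these miRNAs the groups overlapped for miR-486a-5p alone, and the part of these miRNAs in the results for piRNA names was not tested.

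A few names held most of these UMIs. By mean UMI count, 8 names had 100 or more, 22 had 10 to under 100, and 11 had under 10. The 10 most abundant names held 88.4% and 90.8% of the members' UMIs for AMI 1 and 2, against 82.7% and 79.8% for Sham 1 and 2. mmu_piR_027673 alone held 35.2% and 39.3% with AMI, against 20.5% and 22.04% with Sham. mmu_piR_032974 went the other way, with 6.78% and 7.16% with AMI, against 22.4% and 22.9% with Sham. All 41 names were counted in at least 1 library of each group, and 33 were counted in all 4 libraries. There were 1.00 to 1.30 reads per UMI for a single name, with a median of 1.11.

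UMI counts of all 1015 entries were compared between AMI and Sham in 1 fit with the quasi-likelihood test of edgeR, with TMM scaling and a filter on low counts. Levels are given in CPM, which are UMIs scaled to a common total with that scaling. The test covered 848 entries, and 32 of the 41 names passed the filter. At an adjusted p under 0.05, 5 names were higher in AMI plasma (15.6% of those tested), beside 16.9% of all entries tested. In the other direction 9 names were lower in AMI plasma (28.1%), beside 17.6% of all entries tested, and 18 names did not pass. Both AMI libraries lay above both Sham libraries for 12 names (37.5%), beside 35.0% of all entries tested, and below them for 10 names (31.3%), beside 32.0%. Of the 9 falls, 3 were in names that passed the filter through their Sham libraries alone, and without such names 6 of 29 fell (20.7%). The share over all entries is given here only with such entries kept. Nothing particular to the 41 names is read from these counts. The median log2 fold change was 0.26 over the 32 names and 0.04 over all entries tested. With an AMI library left out, the counts were lower in the whole table too. Without AMI 1, 3 of 33 names rose (9.09%) and 2 fell (6.06%), beside 7.42% and 6.15% of all entries. Without AMI 2, 4 of 34 rose (11.8%) and 2 fell (5.88%), beside 8.99% and 4.94%. In these fits AMI is a single library, assumed to vary like the Sham pair, which alone gives the spread. Without Sham 2, where the AMI pair alone gives the spread, 5 of 36 rose and 5 fell (13.9% each), beside 16.3% and 15.9%. Scaled by the 6 reference miRNAs of the study, 5 of 32 names rose (15.6%) and 4 fell (12.5%), beside 17.3% and 10.8% of all entries. With piRNA entries alone in the fit, which changes the scaling, the spread and the number of tests at once, 7 of 33 rose (21.2%) and 3 fell (9.09%), beside 22.1% and 26.0% of the piRNA entries. Scaling by the reference miRNAs shifted the log2 fold changes of all entries tested by a median of 0.17. With piRNA entries alone, the log2 fold changes of the piRNA entries shifted by a median of 0.30. With RLE factors 5 names rose (15.6%) and 9 fell (28.1%), beside 16.6% and 18.8% of all entries. By DESeq2 6 names rose (18.8%) and 7 fell (21.9%), beside 16.2% and 18.0% of all entries.

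**Figure D1:**
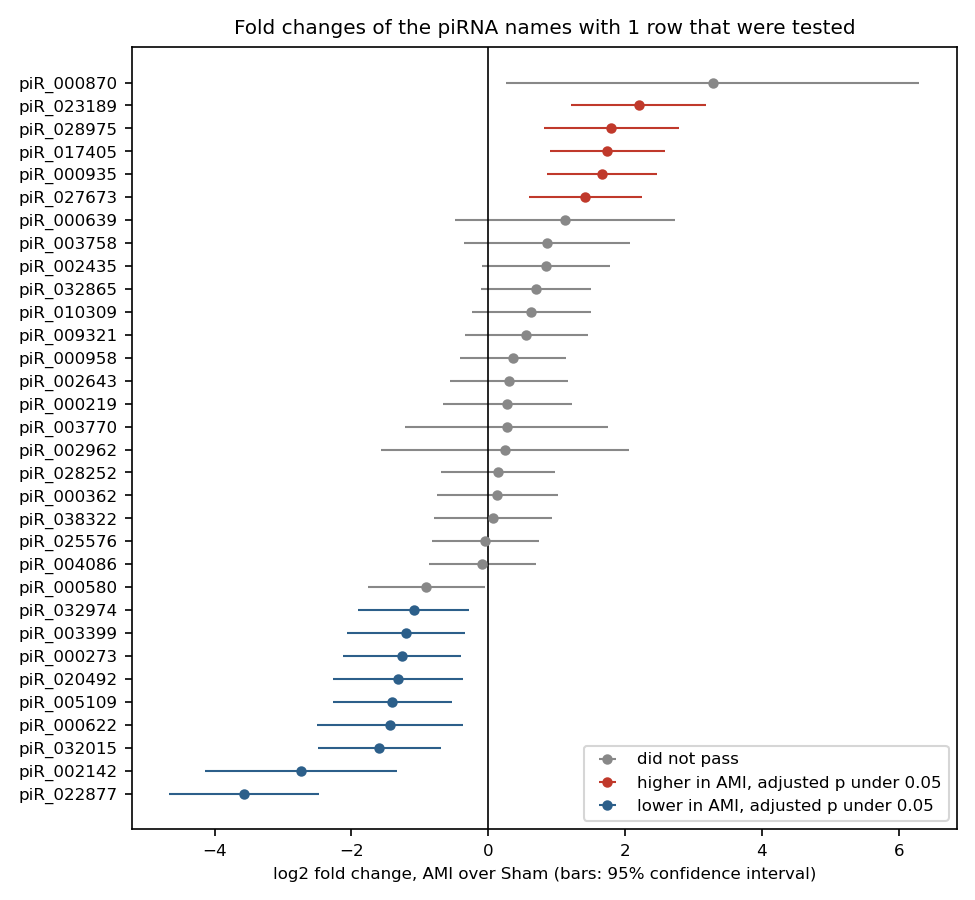
Log2 fold change, AMI over Sham, of each of the 32 piRNA names tested (points) with its 95% confidence interval from edgeR (bars). The 5 names that passed the test upwards lie between 1.42 and 2.20, the 9 that passed downwards between -3.57 and -1.09, and the widest interval is that of mmu_piR_000870, which did not pass.

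Of the 5 names that rose, 4 are 22 bases long by their listed positions and 1 is 30 bases long. The most abundant name, mmu_piR_027673 (chromosome 11, 106317081 to 106317102, plus strand), had 1975 UMIs (AMI 1) and 2433 UMIs (AMI 2), against 638 UMIs (Sham 1) and 545 UMIs (Sham 2). Both AMI libraries were thus above both Sham libraries, also after scaling. Its level was 238 ± 22.7 CPM in AMI and 89.1 ± 6.07 CPM in Sham plasma (SD, n = 2 libraries each), a log2 fold change by edgeR of 1.42 with a standard error of 0.41 (adjusted p = 0.00665). The call was lost without AMI 1 (edgeR, adjusted p = 0.110) and without AMI 2 (0.174), while the log2 fold change stayed at 1.53 and 1.33. mmu_piR_017405 (chromosome 11, 65550994 to 65551015, minus strand), the next in abundance, had 1136 and 1167 UMIs with AMI, against 316 and 191 with Sham. At 125 ± 4.13 CPM in AMI and 37.4 ± 6.56 CPM in Sham plasma (SD, n = 2 each), its groups were far apart relative to the spread. The log2 fold change by edgeR was 1.74 with a standard error of 0.41 (adjusted p = 0.00128), and the call held under all 15 alternatives, with an adjusted p of at most 0.0469.

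The largest rise among the names that passed was in a rare one. mmu_piR_023189 (chromosome 16, 18197850 to 18197871, minus strand) had 43 and 40 UMIs with AMI, against 8 and 5 UMIs with Sham. This corresponds to 4.51 ± 0.465 CPM in AMI and 0.960 ± 0.146 CPM in Sham plasma (SD, n = 2 each). The log2 fold change by edgeR was 2.20 with a standard error of 0.49 (adjusted p = 0.000642), and the call held under all 14 alternatives that gave a value. This name passed the filter on low counts through its AMI libraries alone, so it could be tested only because its AMI level was high. mmu_piR_028975 (chromosome X, 6405378 to 6405399, minus strand) had 42 and 30 UMIs with AMI, against 10 and 5 with Sham. It rose by a log2 fold change by edgeR of 1.80 with a standard error of 0.49 (adjusted p = 0.00412), a call that was lost without AMI 1 (adjusted p = 0.254). The only name over 24 bases that rose was mmu_piR_000935 (chromosome 6, 47717737 to 47717766, minus strand), with 254 and 237 UMIs with AMI, against 71 and 43 with Sham. Its level was 26.7 ± 2.69 CPM in AMI and 8.40 ± 1.46 CPM in Sham plasma (SD, n = 2 each), a log2 fold change by edgeR of 1.66 with a standard error of 0.40 (adjusted p = 0.00134). Its call held under all 15 alternatives, with an adjusted p of at most 0.0424.

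**Figure D2:**
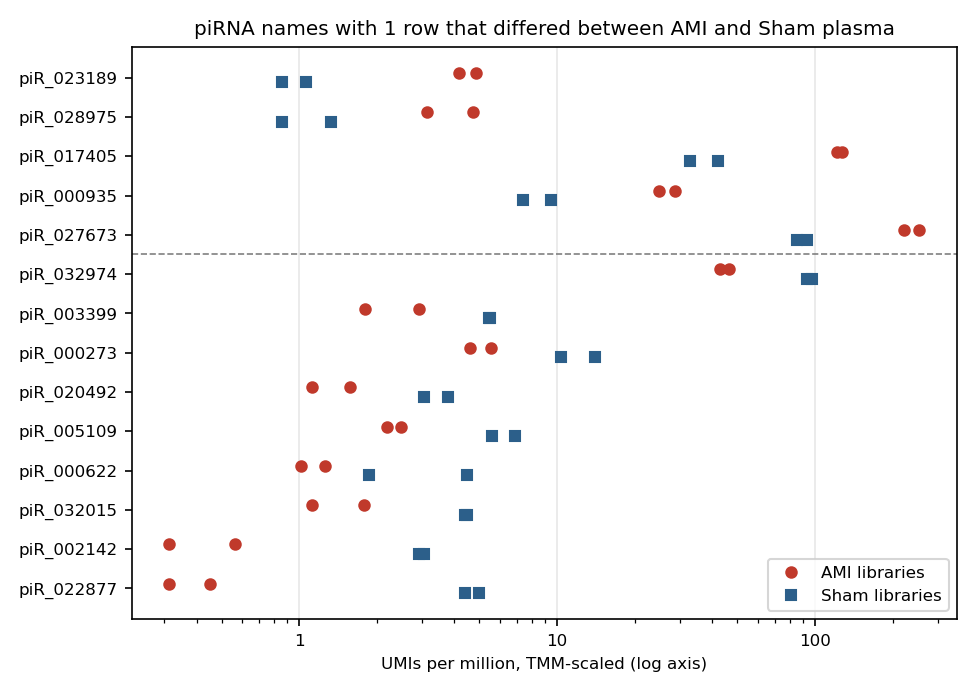
CPM (UMIs scaled to a common total with TMM, log axis) of the 14 piRNA names that passed the test, in the 2 AMI libraries (circles) and the 2 Sham libraries (squares). The 5 names above the dashed line were higher in AMI and the 9 below it were lower, and for each of the 14 the libraries of one group lie on one side of those of the other.

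Among the 9 names that fell, the largest fall was in mmu_piR_022877 (chromosome 16, 23024323 to 23024351, plus strand). It had 4 UMIs (AMI 1) and 3 UMIs (AMI 2), against 33 UMIs (Sham 1) and 29 UMIs (Sham 2). At 0.382 ± 0.0965 CPM in AMI and 4.68 ± 0.412 CPM in Sham plasma (SD, n = 2 each), it was the name furthest from equal levels among those that passed. The log2 fold change by edgeR was -3.57 with a standard error of 0.54 (adjusted p = 3.27e-06), and the call held under all 14 alternatives that gave a value. mmu_piR_002142 (chromosome 11, 69166653 to 69166679, minus strand) had 5 and 3 UMIs with AMI, against 23 and 17 with Sham. Its log2 fold change by edgeR was -2.74 with a standard error of 0.69 (adjusted p = 0.00234). The call was lost without AMI 2 (edgeR, adjusted p = 0.0561), without Sham 1 (0.245) and without Sham 2 (0.0567), at log2 fold changes of -2.36, -2.77 and -2.79. Both of these names passed the filter through their Sham libraries alone, so they could be tested only because their Sham levels were high.

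The most abundant of the names that fell was mmu_piR_032974 (chromosome 4, 130021751 to 130021778, plus strand), with 380 and 443 UMIs with AMI, against 698 and 566 with Sham. Although the AMI libraries were sequenced more deeply, their raw counts were also the lower ones. Its level was 44.5 ± 2.51 CPM in AMI and 94.9 ± 2.97 CPM in Sham plasma (SD, n = 2 each), a log2 fold change by edgeR of -1.09 with a standard error of 0.40 (adjusted p = 0.0316). Among the libraries left out, this call was lost without AMI 1 (edgeR, adjusted p = 0.378) and without AMI 2 (0.318). mmu_piR_000273 (chromosome 9, 122531596 to 122531620, plus strand) had 41 and 53 UMIs with AMI, against 78 and 82 with Sham. Its log2 fold change by edgeR was -1.26 with a standard error of 0.42 (adjusted p = 0.0197), and the call was lost without AMI 1 (0.263), AMI 2 (0.135) or Sham 2 (0.0548).

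The remaining names that fell had 9 to 28 UMIs in each AMI library and 14 to 42 in each Sham library. mmu_piR_032015 (chromosome 2, 10427172 to 10427193, plus strand), the only fall among the names of 22 bases, had 10 and 17 UMIs with AMI, against 33 and 26 with Sham. Its log2 fold change by edgeR was -1.59 with a standard error of 0.45 (adjusted p = 0.00558), lost without AMI 1 (0.190). mmu_piR_005109 (chromosome 5, 146565258 to 146565289, plus strand) had 22 and 21 UMIs with AMI against 42 and 40 with Sham, a log2 fold change of -1.40 by edgeR (adjusted p = 0.0101). The call was lost without AMI 1 (0.122) and without AMI 2 (0.161). mmu_piR_003399 (chromosome 5, 108144856 to 108144884, plus strand) had 16 and 28 UMIs with AMI, against 41 and 32 with Sham. At a log2 fold change of -1.20 by edgeR (adjusted p = 0.0269), it also lost its call without AMI 1 (0.405) or AMI 2 (0.0779).

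For mmu_piR_020492 (chromosome 11, 108827972 to 108827997, minus strand) the counts were 10 and 15 UMIs with AMI, against 23 and 22 with Sham. Its log2 fold change was -1.32 by edgeR (adjusted p = 0.0260), and the call was lost without AMI 1 (0.325), AMI 2 (0.119) or Sham 2 (0.104). mmu_piR_000622 (chromosome 3, 5843428 to 5843455, plus strand) had 9 and 12 UMIs with AMI, against 14 and 26 with Sham, and passed the filter through its Sham libraries alone. Its log2 fold change of -1.43 by edgeR (adjusted p = 0.0323) became -0.73 without Sham 2, and the call was lost without Sham 2 (0.643), AMI 1 (0.276) or AMI 2 (0.148). By DESeq2 neither of these 2 names passed, at adjusted p = 0.0588 and 0.0876. Of the 14 calls, 12 were also made by DESeq2.

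Other settings took the calls of some of the names that fell. Scaled by the 6 reference miRNAs, adjusted p by edgeR was 0.0799 for mmu_piR_032974, 0.0652 for mmu_piR_000273, 0.0799 for mmu_piR_003399, 0.0719 for mmu_piR_020492 and 0.107 for mmu_piR_000622. With piRNA entries alone it was 0.122, 0.134, 0.133, 0.0649 and 0.0642 for the same names, and 0.0880 for mmu_piR_005109. By reads mmu_piR_000622 was at 0.0556, and with at least 10 UMIs in every library mmu_piR_032974 was at 0.0550. With crossed replicate numbers as a block, chosen after the data were seen, these 2 names were at 0.0522 and 0.0508. None of the 14 names that passed changed sign under any alternative that gave a value.

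Among the 10 most abundant names, 6 did not pass the test. mmu_piR_032865, a name of 23 bases on chromosome 2, had 479 and 490 UMIs with AMI, against 297 and 146 with Sham. Both AMI libraries were above both Sham libraries, but the Sham libraries lay far apart, at 52.5 ± 1.89 CPM in AMI and 32.3 ± 10.2 CPM in Sham plasma (SD, n = 2 each). The log2 fold change was 0.70 (95% confidence interval -0.10 to 1.51, adjusted p = 0.178 from edgeR), and the name passed without Sham 1 (0.0212). mmu_piR_025576 was at 20.4 and 25.2 CPM with AMI against 20.6 and 26.4 CPM with Sham, and mmu_piR_004086 averaged 21.7 ± 3.77 CPM with AMI and 23.0 ± 0.334 CPM with Sham (SD, n = 2 each). For both of these the groups overlapped, at log2 fold changes of -0.04 (-0.83 to 0.74) and -0.09 (-0.87 to 0.69), with adjusted p = 0.959 and 0.921 from edgeR. mmu_piR_000958 had 214 and 182 UMIs with AMI, against 129 and 96 with Sham, with a log2 fold change of 0.36 (-0.42 to 1.13). mmu_piR_028252 had 70 and 110 UMIs with AMI, against 63 and 54 with Sham, with a log2 fold change of 0.14 (-0.70 to 0.97). The last of the 10, mmu_piR_010309, had 98 and 79 UMIs with AMI, against 35 and 46 with Sham, with a log2 fold change of 0.63 (-0.24 to 1.50). The intervals of these 6 names are wide, so the misses do not show equal levels.

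A name almost without UMIs in Sham plasma did not pass. mmu_piR_000870 had 15 UMIs in each AMI library and 0 and 2 in Sham 1 and Sham 2, and passed the filter through its AMI libraries alone. The ratio of scaled UMIs was 10.9 (exact 95% counting interval 2.75 to 93.7), at adjusted p = 0.0871 from edgeR, and DESeq2 gave an adjusted p of 0.0314. The 9 names that did not reach the filter had 0 to 16 UMIs in any library. Of these, 7 had 0 in both libraries of one of the pairs described above, for instance mmu_piR_000619 with 0 UMIs (AMI 1) and 13 UMIs (AMI 2), against 8 UMIs (Sham 1) and 0 UMIs (Sham 2). The other 2 were counted in all 4 libraries and were higher in both AMI libraries, namely mmu_piR_000705 with 10 and 16 UMIs against 5 and 4, and mmu_piR_015668 with 12 and 12 against 4 and 5. These 3 names and mmu_piR_000870 were singled out after their values were seen.

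The names differ in length, which follows from the start and end listed with each. They are 21 to 32 bases long with a median of 27, and the 53 entries of names with several rows have the same range and median. Of the 10 names with 24 bases or fewer, 9 were tested, and 4 were higher and 1 lower in AMI plasma. Of the 31 names with 25 bases or more, 23 were tested, and 1 was higher and 8 lower, beside 16.9% higher and 17.6% lower among all entries tested. Without the names that passed the filter through 1 group alone, 3 of 8 shorter names were higher and 1 lower, and 1 of 19 longer names was higher and 5 lower. The shares over all entries keep the entries that passed in this way. Together the shorter names took 72.0% and 74.6% of the members' UMIs for AMI 1 and 2, against 50.1% and 47.4% for Sham 1 and 2. Most of this was in 2 of them, mmu_piR_027673 and mmu_piR_017405. These alone took 55.5% and 58.2% for AMI 1 and 2, against 30.6% and 29.8% for Sham 1 and 2. The median log2 fold change was 0.70 for the shorter and 0.13 for the longer names tested. The division at 24 bases was made after the values were seen, and the difference between the length classes was not tested. Mature miRNAs are of about the length of the shorter names.

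**Figure D3:**
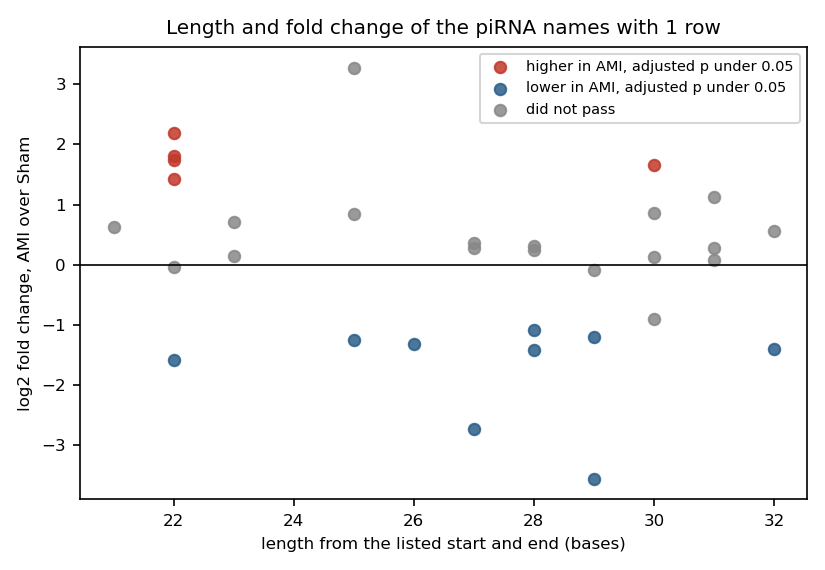
Log2 fold change, AMI over Sham, against length in bases for the 32 piRNA names tested, with a point per name coloured by the outcome of the test. At 22 bases there are 4 names higher in AMI, 1 lower and 1 that did not pass. Of the 23 names above 24 bases, 1 is higher, 8 are lower and 14 did not pass. Among all entries tested, 16.9% were higher and 17.6% lower. Without names that passed the filter through 1 group alone, 1 of 19 longer names was higher and 5 lower. The division at 24 bases was made after the values were seen, and the difference between the length classes was not tested.

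The positions are those in the table. They did not match the GRCm38 annotation in the checks below, although the build mm10 is named in the submitters' processing notes. Of the 41 names 0 lie on a short non-coding RNA gene (miRNA, tRNA, rRNA, small nuclear or nucleolar RNA) of the GENCODE M21 annotation or a tRNA of RefSeq, on the same strand or on either strand. Of all 94 piRNA entries, 0 lie on such a gene. The build was checked with mmu_piR_000691, a name outside the 41. Of its 20 entries on chromosome 8, 0 lie inside an annotated 5S rRNA gene. After a single shift of 2.89 Mb 17 would do so, but that shift was picked because it placed the most entries inside such genes. The positions are therefore given as they stand, with their build unknown, and no overlap with annotated genes is drawn from them. They were used only relative to one another.

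Several of the 41 names lie next to each other on the same strand. They are spread over 16 chromosomes, 30 on the plus and 11 on the minus strand, and 17 have another of the 41 within 2000 bases. Bases are shared with another piRNA entry by 7 names, so that a read in the shared stretch could have been counted for either. The largest group is on chromosome 17, where mmu_piR_000619, mmu_piR_002435, mmu_piR_000639, mmu_piR_000219 and mmu_piR_000958 and an entry of mmu_piR_000414 lie within 1783 bases (39454472 to 39456254, plus strand). The 5 names of this group together had 299 UMIs (AMI 1) and 256 UMIs (AMI 2), against 164 UMIs (Sham 1) and 134 UMIs (Sham 2). These sums are not scaled, and both AMI libraries held more UMIs in all than either Sham library. No difference between the groups is read from them. The 4 that were tested had log2 fold changes of 0.28 to 1.12, and 0 of them passed. On chromosome 3, mmu_piR_000622 shares 14 bases with an entry of mmu_piR_001570 and 17 bases with one of mmu_piR_000616. Its neighbour mmu_piR_002643, with 249 bases between them, had 72 and 55 UMIs with AMI, against 37 and 37 with Sham, at a log2 fold change of 0.30 by edgeR (adjusted p = 0.643). There are 49 bases between mmu_piR_002643 and an entry of mmu_piR_000620, the piRNA name with the most UMIs in the table, with 23153 and 17316 UMIs at that place with AMI, against 2124 and 1839 with Sham. The log2 fold change of that entry was 2.88, and the difference between it and mmu_piR_002643 was not tested.

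In 5 pairs, 2 of the 41 names share bases or have fewer than 50 bases between them, and 4 of these pairs were counted in all libraries. The ratio of UMIs within a library needs no scaling between libraries. On chromosome X, mmu_piR_028975 and mmu_piR_025576 are both 22 bases long with 15 bases between them. Their log2 ratio was -2.11 and -3.01 for AMI 1 and 2, against -3.95 and -4.94 for Sham 1 and 2. The rarer of these neighbours was thus a larger part of the pair in both AMI libraries. On chromosome 11, mmu_piR_000580 follows mmu_piR_027673 with 23 bases between them. It had 19 and 22 UMIs with AMI, against 34 and 22 with Sham, and its log2 ratio to mmu_piR_027673 was -6.70 and -6.79 with AMI, against -4.23 and -4.63 with Sham. The one of these neighbours rose, and the other was at a log2 fold change of -0.90 by edgeR (adjusted p = 0.100).

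The other pairs overlap. On chromosome 5, mmu_piR_002962 and mmu_piR_005109 share 13 bases, and mmu_piR_002962 had 15 and 9 UMIs with AMI, against 11 and 4 with Sham. Their log2 ratio was -0.55 and -1.22 with AMI, against -1.93 and -3.32 with Sham. On chromosome 6, mmu_piR_038322 and mmu_piR_000362 share 29 bases, and there the log2 ratio was 0.57 and -0.21 with AMI, against 0.75 and -0.14 with Sham. The groups overlapped for this pair alone among the 4. Each of the other pairs counted in all libraries holds a name that passed the test, and this pair holds none. By CPM of single entries, both AMI libraries lay above both Sham libraries for 35.0% of all entries tested and below them for 32.0%. mmu_piR_008475 and mmu_piR_003758 on chromosome 12 share 27 bases, but mmu_piR_008475 is at 0 in AMI 2 and Sham 1. With 2 libraries in a group an exact permutation test of such a ratio cannot give a two-sided p below 0.333, so these ratios are given without a test.

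**Figure D4:**
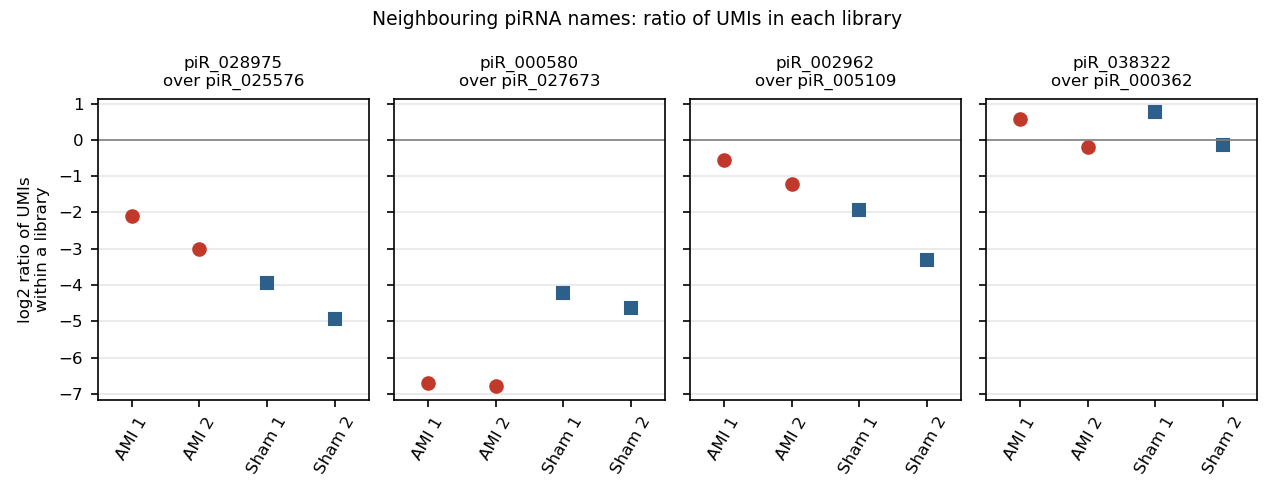
Log2 ratio of UMIs of neighbouring piRNA names within each library (AMI 1, AMI 2, Sham 1, Sham 2), for the 4 pairs counted in every library, with circles for AMI and squares for Sham. The groups do not overlap in 3 pairs, with the widest gap for mmu_piR_000580 over mmu_piR_027673, and they overlap for mmu_piR_038322 over mmu_piR_000362. Each of the 3 holds a name that passed the test, and the overlapping pair holds none. By CPM of single entries, AMI lay wholly above Sham for 35.0% of all entries tested and wholly below for 32.0%.

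Of the 53 entries of piRNA names with several rows, 44 were tested, and 10 were higher and 17 lower in AMI plasma (22.7% and 38.6%), beside 16.9% and 17.6% of all entries tested. Of the 17 falls, 14 were places of mmu_piR_000691 alone. The median log2 fold change was 0.26 for the names with 1 row, against -0.90 for these entries and 0.62 for them without mmu_piR_000691, so no difference from them is drawn. Entries of one name are places of a single catalogued RNA, so these entries are not independent of one another. The piRNA entries as a whole took 0.708% and 0.442% of the UMIs for AMI 1 and 2, against 0.148% and 0.215% for Sham 1 and 2. The names with 1 row made up 8.77% and 12.2% of the piRNA UMIs with AMI, against 28.2% and 23.7% with Sham. This order was set by mmu_piR_000620, which took 84.3% and 81.1% of the piRNA UMIs with AMI, against 33.2% and 41.0% with Sham. Without that name the order turned, and the names with 1 row made up 55.9% and 64.8% with AMI, against 42.1% and 40.2% with Sham.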

How the data were processed

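Small RNA of plasma was sequenced in 4 libraries (AMI 1, AMI 2, Sham 1, Sham 2) made with a Qiagen microRNA kit. What the authors deposited is 1 table of raw UMI counts, with reads beside them, for miRNA and piRNA entries. bcl2fastq 2.18.0.12 and mm10 are named in the submitters' processing notes, and which aligner, counter or piRNA list was used is not given in the sources used here. Here 1 row without values was left out. UMI counts of all entries were fitted together with edgeR 4.0.16 in R 4.3.3 (filterByExpr with a minimum of 10 at the median library size, TMM, robust quasi-likelihood, two-sided) with Benjamini-Hochberg adjustment over all 848 entries tested and a threshold of 0.05. The TMM factors were 0.986, 0.835, 1.01 and 1.20 in the order above. Names printed in full were those past the threshold, the 10 most abundant, and any at 0 in both libraries of a group (there were 0). Others are named for their positions or for a sign that turned, or are said to be singled out after their values were seen. Members, lists and alternatives were chosen with earlier results of these data known. DESeq2 1.42.0 was an alternative. The fit was tested on simulated data. Positions were compared in Python 3.11.15 with GENCODE M21 and RefSeq. Overlap with genes, first bases and sequences were not used, as the build of the positions is not known.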

Additional observations from a re-analysis of the deposited data

How the results depend on the processing

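Depth limits the rarer names, and 22 of the 41 had at least 10 UMIs in every library. Alternatives were DESeq2, scaling by library size, RLE or the 6 reference miRNAs, other filters, read counts, piRNA entries alone, no entries at 0 in a pair, a replicate block, and each library left out. With at least 10 UMIs in every library, 22 names were tested, 3 higher (13.6%) and 5 lower (22.7%), beside 17.3% and 17.7% of all entries fitted. The number lower was 4 by the 6 references (12.5%, beside 10.8% of all entries). It was 3 with piRNA entries alone (9.09%, beside 26.0% of the piRNA entries). Leaving out 1 library gave 3 to 6 names higher and 2 to 8 lower. In each of these fits 1 group is a single library, and the number of names tested differed between them. The share of all entries called also changed with the library left out, in both directions of change. Nothing particular to the 41 names is read from this range. Called in every alternative that gave a value were mmu_piR_017405, mmu_piR_000935, mmu_piR_023189 and mmu_piR_022877, although mmu_piR_023189 passed the filter through AMI libraries alone and mmu_piR_022877 through Sham libraries alone. No call changed sign. Scaling by library size alone shifted the log2 fold changes of all entries tested by a median of -0.28 and kept all 14 calls. As a share of piRNA UMIs, the members came to 8.77% and 12.2% in AMI and 28.2% and 23.7% in Sham libraries, and without mmu_piR_000620, left out after the data were seen, to 55.9% and 64.8% in AMI and 42.1% and 40.2% in Sham libraries.

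The labels share only replicate numbers. Deviations of libraries with the same number correlated at -0.24 over 848 entries (0.00 over the 826 without entries at 0 in a pair), across entries that are not independent. The replicate block left all 14 calls, with 5 higher and 9 lower of 32 names, beside 137 and 133 of all 848 entries. Crossed numbers, chosen after the data were seen, gave 6 and 7 of 32 names, beside 148 and 144 of all 848 entries.

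Among names that did not pass, signs turned as follows. By library size alone mmu_piR_000362 was at -0.17, mmu_piR_028252 at -0.17 and mmu_piR_038322 at -0.18, and by read counts mmu_piR_000362 was at -0.11. By the 6 references, at least 10 UMIs and piRNA entries alone, mmu_piR_004086 was at 0.078, 0.0062 and 0.21, and mmu_piR_025576 at 0.12, 0.048 and 0.26. Leaving out 1 library gave for mmu_piR_000219 -0.30 to 0.71, mmu_piR_000362 -0.30 to 0.51, mmu_piR_002962 -0.19 to 0.85, mmu_piR_003770 -0.26 to 1.12, mmu_piR_004086 -0.27 to 0.10, mmu_piR_025576 -0.29 to 0.12, mmu_piR_028252 -0.15 to 0.40 and mmu_piR_038322 -0.32 to 0.40.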
